A study of Mus musculus with 12 samples.

Results

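Gpx6, Fig4, Smpdl3b and St6galnac4 are genes that stood out for their rise when MycER was activated in FLMycER cells. They were chosen from the RNA-seq values themselves, by the rise from untreated to OHT-treated cells, and form 4 of the 21671 genes in the deposited table. All 4 passed the filter on low values used for testing (3 or more libraries with an RPKM of 1 or higher), as did 9745 genes in all. Gpx6, Fig4 and Smpdl3b held ranks 1, 2 and 3 among the 9745 genes by log2 fold change with OHT, whereas St6galnac4 held rank 34, and 30 genes outside the set rose by more than St6galnac4.

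FL5.12 is an IL-3-dependent murine lymphoid precursor line, and the cells used here carried a retroviral MycER, a fusion of MYC with an estrogen receptor domain that responds to 4-hydroxytamoxifen (OHT). The fusion was driven constitutively in an antibiotic-selected population and was present in all 12 libraries, those of untreated cells included. There were 4 conditions with 3 biological replicates each, namely untreated cells (untreated), cells given 100 nM OHT for 72 h (OHT), cells given IACS-010759 at 135 nM for 24 h (IACS), and OHT-primed cells, which had 48 h of OHT at 100 nM before 24 h of IACS-010759 at 135 nM together with OHT (OHT_IACS). IACS-010759 is a small-molecule inhibitor of complex I of the electron transport chain. OHT-treated cells without MycER were not analysed here, so MycER activation and other actions of OHT cannot be told apart.

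MYC is a transcription factor that binds DNA with its partner MAX, most tightly at the E-box CACGTG, and it is known in lymphoid cells for driving growth, ribosome production and metabolism. The members of the set act in different pathways. Gpx6 encodes a glutathione peroxidase, an enzyme that reduces peroxides with glutathione, and is known for expression in the olfactory epithelium. Fig4 encodes a phosphoinositide phosphatase that works with the kinase Pikfyve and the scaffold Vac14 in setting the level of PI(3,5)P2, a lipid of endosomes and lysosomes. Smpdl3b encodes a phosphodiesterase related to acid sphingomyelinase that is anchored to the outer plasma membrane. St6galnac4 encodes a Golgi sialyltransferase that adds sialic acid to O-linked glycans.

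The genes lie on 4 different chromosomes. In GENCODE vM21 (GRCm38), Gpx6 (ENSMUSG00000004341.8) spans chr13:21312125-21319624 on the plus strand and Fig4 (ENSMUSG00000038417.4) chr10:41188172-41303260 on the minus strand. Smpdl3b (ENSMUSG00000028885.8) spans chr4:132732966-132757252 on the minus strand and St6galnac4 (ENSMUSG00000079442.12) chr2:32587095-32599698 on the plus strand. The submitters aligned reads to mm9, so these positions serve for naming neighbours only. The gene lengths behind the RPKM, worked out from the steps between values, were 1290 bases for Gpx6, 3263 for Fig4, 1925 for Smpdl3b and 7003 for St6galnac4, beside 1368, 3282, 2006 and 6482 bases of merged GENCODE exons.

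Since MYC is known to bind the E-box, sequence around the start sites is shown with any CACGTG in capitals. The windows come from RefSeq (GRCm38.p6), where all 4 genes matched, and were searched from 250 bases before to 50 bases after the start site. The letters read the same on both strands. Gpx6 and Smpdl3b each held 1 match, 121 bases before and 42 bases after the RefSeq start site respectively, and Fig4 and St6galnac4 held none in these windows. For Gpx6 the part upstream of both the RefSeq and the GENCODE start is printed (chr13:21311953-21312124, plus strand), for Fig4 the 171 bases from its GENCODE start to the RefSeq start of the divergent gene Ak9 (chr10:41303261-41303431, minus strand), for Smpdl3b the 30 bases that hold the match (chr4:132757122-132757151, minus strand), and for St6galnac4 the 250 bases before the start (chr2:32586828-32587077, plus strand).
Gpx6: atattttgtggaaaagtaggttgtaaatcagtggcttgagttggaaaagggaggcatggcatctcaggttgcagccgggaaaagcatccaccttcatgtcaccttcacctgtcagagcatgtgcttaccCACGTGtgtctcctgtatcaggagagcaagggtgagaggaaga
Fig4: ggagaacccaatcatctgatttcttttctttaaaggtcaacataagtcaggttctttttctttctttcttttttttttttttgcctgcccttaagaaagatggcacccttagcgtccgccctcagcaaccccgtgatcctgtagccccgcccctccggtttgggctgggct
Smpdl3b: caaacgagtagttctgcccagaCACGTGgc
St6galnac4: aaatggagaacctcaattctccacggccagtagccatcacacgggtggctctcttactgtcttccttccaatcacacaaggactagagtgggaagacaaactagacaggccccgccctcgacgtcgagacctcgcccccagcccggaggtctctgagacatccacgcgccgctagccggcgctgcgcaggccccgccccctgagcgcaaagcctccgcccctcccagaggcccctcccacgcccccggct

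Such a match was found in 7.15% of 32851 RefSeq promoter windows of this length, in 10.5% of the 9313 windows of tested genes, and in 10.9% of the 46 windows of genes that rose with OHT by at least 1 on the log2 scale. The 2 of 4 windows above are a description of sequence, and binding was not measured here.

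RPKM is the number of reads on a gene, per kilobase of its length and scaled to the total of the library. Library totals ran from 10376530 to 14550158 reads, and OHT replicates 1 and 3 had the smallest totals, at 0.713 and 0.74 of the largest. Replicates of a condition differed by more than sampling noise except IACS replicates 1 and 2, whose chi-square was 1.02 per gene over 10541 genes (p = 0.085, chi-square test of their reads), whereas it reached 4.84 for OHT replicates 1 and 2. IACS replicates 1 and 2 were therefore counted as 1 sample in means and SD, which leaves n = 2 for IACS. Both stayed in the fit of 12 libraries. Calls of the 4 genes that are lost when these replicates are averaged there are named, as are the larger changes in the gene lists. Smaller changes in counts of called genes are not all named, so an IACS result without such a remark may still change. Among B-lineage marker genes, Pax5, Rag1, Dntt and Blnk were at 0 in every library, and Cd79a and Cd79b had median RPKM of 1.07 and 2.21. The summed RPKM of 7 myeloid marker genes was 62.2 to 71.8 in untreated, 17.7 to 20.5 in OHT, 60.0 to 71.5 in IACS and 17.7 to 18.3 in OHT_IACS libraries. That of 6 mast cell and basophil markers was 4.87 to 5.33, 4.62 to 6.04, 8.39 to 8.66 and 11.7 to 15.1 in the same order. The T cell markers summed to 2.24 to 2.67, 1.26 to 1.44, 2.46 to 2.59 and 1.87 to 1.98, and the 12 B-lineage markers to 4.01 to 4.66, 2.82 to 2.9, 4.01 to 5.17 and 2.18 to 2.97. The erythroid markers summed to 42.6 to 43.4, 43.6 to 46.7, 35.0 to 41.2 and 37.6 to 38.3. The myeloid, T cell and B-lineage sums were thus lower with OHT in both IACS-010759 states, and the mast cell and basophil sum was higher with IACS-010759 in both OHT states. Of the 6 mast cell and basophil markers, only Cpa3 had a median RPKM of 1 or more, at 6.69, and Kit and Tpsb2 were at 0 in every library. Of the T cell markers, only Cd3g had such a median, at 1.66. Of the 7 myeloid markers, 3 had such a median, namely Mpo at 10.8, S100a8 at 12.4 and S100a9 at 15.6. Of the 12 B-lineage markers, only Cd79a and Cd79b had one. The myeloid, T cell, B-lineage and mast cell and basophil sums thus rest on few genes. The part of these markers in the results was not tested. In bulk RNA, a change in the share of cells that express a gene and a change in RNA per cell cannot be told apart.

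Gpx6 went from next to no reads to clear expression. It had 1, 0 and 0 reads in the untreated libraries and 64, 100 and 68 reads in the OHT libraries, or 4.78, 5.55 and 4.89 RPKM (mean 5.08 ± 0.418, SD, n = 3). With IACS-010759 alone it had 0 reads in all 3 libraries, and in OHT_IACS libraries 97, 103 and 102 reads, or 6.31, 6.76 and 6.71 RPKM (mean 6.59 ± 0.246, n = 3). Every library with OHT was thus far above every library without it, as the groups of 45.8% of all tested genes did not overlap between OHT and untreated. The ratio of reads per library total between OHT and untreated was 279, with an exact 95% interval of 49.6 to 11100 for counting error only, since a single untreated read stands below the line. For OHT_IACS, the level was at least 108-fold higher when set against a floor of 3 reads over the whole IACS group. The exact 95% interval of that ratio over 0 reads, for counting error only, has its lower end at 86.9-fold.

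Fig4 had low RPKM without OHT. Its RPKM were 0.71, 0.948 and 0.987 in the untreated libraries and 8.27, 8.98 and 8.17 in the OHT libraries, with means of 0.882 ± 0.15 and 8.47 ± 0.444 (n = 3 each). In the IACS libraries they were 1.29, 1.16 and 0.991, and in the OHT_IACS libraries 8.62, 7.87 and 7.51 (mean 8.0 ± 0.565, n = 3). The OHT libraries lay well above all libraries without OHT, and the OHT and OHT_IACS libraries overlapped. The change from untreated to OHT was 3.12 ± 0.12 (SE) on the log2(RPKM + 0.1) scale.

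Smpdl3b was lower with IACS-010759 in both OHT states. Its RPKM were 1.32, 1.18 and 1.35 in the untreated libraries, 9.11, 8.11 and 9.16 in the OHT libraries, 0.596, 0.795 and 0.747 in the IACS libraries, and 6.45, 6.69 and 4.63 in the OHT_IACS libraries. The means were 1.28 ± 0.0904 (n = 3), 8.8 ± 0.591 (n = 3), 0.721 ± 0.0363 (n = 2) and 5.92 ± 1.13 (n = 3). No group overlapped another, and the order was IACS, untreated, OHT_IACS, OHT from low to high. OHT_IACS replicate 3 stood lowest among the libraries with OHT. The change from untreated to OHT was 2.67 ± 0.14 on the log2 scale.

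St6galnac4 was well expressed before OHT and rose least of the set. Its RPKM were 6.89, 6.97 and 7.66 in the untreated libraries and 18.4, 18.9 and 19.8 in the OHT libraries, with means of 7.17 ± 0.425 and 19.0 ± 0.679 (n = 3 each). In the IACS libraries they were 9.23, 8.80 and 7.41, and in the OHT_IACS libraries 20.1, 19.8 and 19.3 (mean 19.7 ± 0.392, n = 3). The libraries with and without OHT did not overlap, whereas those with and without IACS-010759 did within each OHT state. The change from untreated to OHT was 1.38 ± 0.06 on the log2 scale. With 578 to 1849 reads in a library, it was the most precisely measured of the set.

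**Figure D1:**
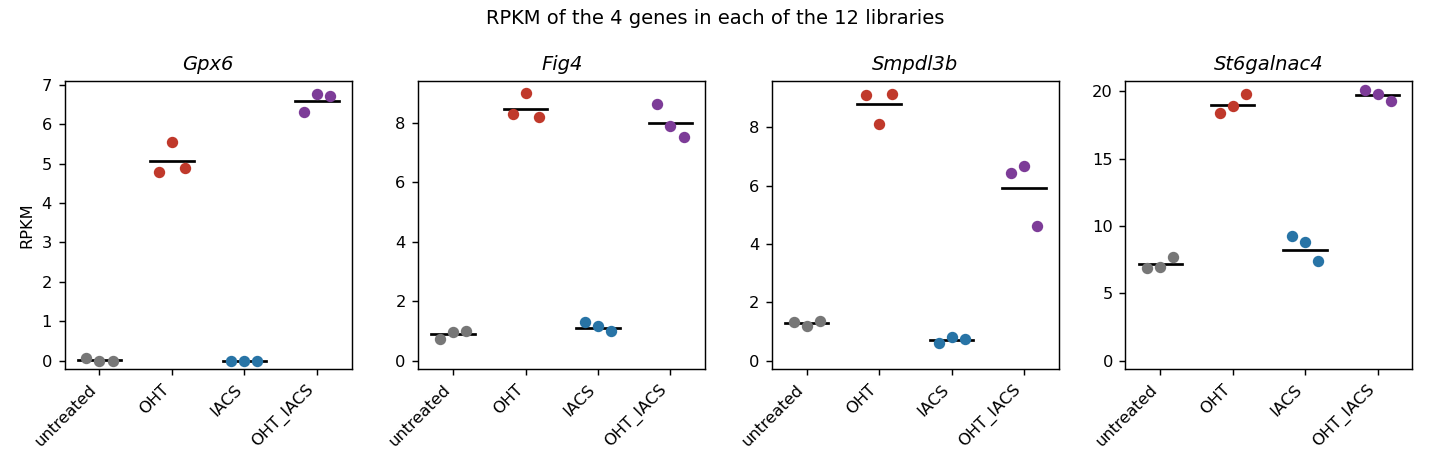
RPKM (vertical axes, each starting near 0) of Gpx6, Fig4, Smpdl3b and St6galnac4 in the 3 libraries of each condition, with horizontal lines at the group means (IACS replicates 1 and 2 counted as 1 sample). In all panels the OHT and OHT_IACS points lie above the untreated and IACS points, and for Smpdl3b the OHT_IACS points, at 4.63 to 6.69, lie below the OHT points, at 8.11 to 9.16.

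These rises from untreated to OHT are the values that chose the genes, and no test is given for them. Over all 9745 genes tested, 18.2% were called higher with OHT and 0.575% were called higher by at least 1 on the log2 scale. All 4 genes rose by at least 1 as a result of the choice of genes. The next in rank were Hkdc1 (a hexokinase relative) at 2.54, Psg16 (a pregnancy-specific glycoprotein) at 2.50, C1rb (a complement protease) at 2.49, Mir302c at 2.49, Slc2a6 (a sugar transporter) at 2.44 and Mir32 at 2.42. Mir302c and Mir32 had at most 1 read in any library, and Psg16 and C1rb have near-identical copies between which reads can be split. Of these 30 genes, 7 stayed under 20 reads in every library. Just below St6galnac4 came Cd74 (the invariant chain of MHC class II) at 1.36, Relb (an NF-kB subunit) at 1.34 and Pdp1 (a phosphatase that activates pyruvate dehydrogenase) at 1.34. The deposited RPKM of Myc itself fell with OHT, from 36.3 ± 0.779 to 21.0 ± 1.6 (n = 3 each), with a log2 fold change of -0.81 ± 0.05 (adjusted p = 1.7e-07). The share of Myc reads that came from the transgene was not tested.

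Whether the rise with OHT was also seen under IACS-010759 was asked with OHT_IACS against IACS, since none of these libraries entered the choice of genes. All 4 genes were higher in OHT_IACS cells, where 12.3% of all tested genes were called higher and 0.595% were called higher by at least 1 on the log2 scale. The log2 fold change was 2.71 ± 0.12 for Fig4 (adjusted p = 6.7e-09), 2.88 ± 0.14 for Smpdl3b (adjusted p = 1.6e-08) and 1.22 ± 0.06 for St6galnac4 (adjusted p = 1.8e-08), each from limma with Benjamini-Hochberg adjustment over the 9745 genes. For Gpx6 the adjusted p was 1.3e-09, and its fitted value of 6.06 depends on the pseudocount, because the IACS libraries hold no read. The OHT_IACS and IACS libraries did not overlap for any of the 4 genes, as was so for 40.4% of all genes tested. By size, Gpx6 ranked 1, Smpdl3b 3, Fig4 4 and St6galnac4 52 among the 9745 genes in this comparison. The median of all tested genes was close to 0, at -0.003. Gpx6 passed the filter on low values only through the libraries with OHT, and Fig4 would not have passed without them, since it reached an RPKM of 1 in only 2 libraries without OHT. With no filter, the adjusted p was 2.6e-08 for Gpx6 and 1.3e-07 for Fig4.

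The OHT response with IACS-010759 minus that without it was -0.41 ± 0.16 for Fig4, 0.22 ± 0.20 for Smpdl3b and -0.15 ± 0.09 for St6galnac4 on the log2 scale (value ± SE). That of Smpdl3b was -0.08 ± 0.15 with a pseudocount of 1. None is given for Gpx6, whose value is set by the pseudocount. These differences hold the contrast that chose the genes and were not tested.

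**Figure D2:**
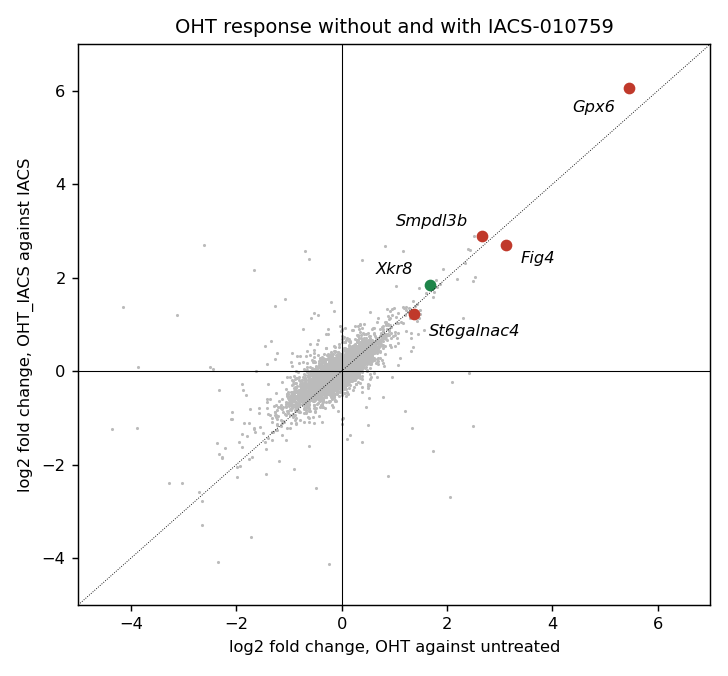
Log2 fold change of OHT against untreated (horizontal axis) and of OHT_IACS against IACS (vertical axis) for the 9745 genes tested, in grey, with the 4 genes in red, their neighbour Xkr8 in green, and a dotted line where both are equal. Gpx6 stands apart at 5.46 and 6.06, Smpdl3b and Fig4 lie between 2.67 and 3.12, and St6galnac4, at 1.38 and 1.22, lies at the edge of the cloud of other genes.

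Smpdl3b fell with IACS-010759 in nonprimed cells, with a log2 fold change of -0.80 ± 0.14 (adjusted p = 0.0019), and likewise in OHT-primed cells, with -0.58 ± 0.14 (adjusted p = 0.0095). In neither state did the libraries overlap, as in 37.5% of all tested genes in nonprimed and 35.1% in OHT-primed cells. The mean went from 1.28 to 0.721 RPKM without OHT and from 8.8 to 5.92 RPKM with it, so that OHT-primed cells with IACS-010759 still held more Smpdl3b RNA than untreated cells. Both calls held under all 24 alternative settings. The untreated libraries, where the genes were low, and the OHT libraries, where they were high, also entered the choice of genes, and this holds for all IACS-010759 comparisons here. Of all genes tested, 7.74% were called lower with IACS-010759 in nonprimed cells and 11.8% in OHT-primed cells.

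St6galnac4 was called higher with IACS-010759 in nonprimed cells, by 0.21 ± 0.06 on the log2 scale (adjusted p = 0.034), where 8.15% of all genes were. The IACS libraries, at 7.41 to 9.23 RPKM, overlapped the untreated libraries, at 6.89 to 7.66, and the call held in 15 of 24 alternative settings, with adjusted p from 0.0054 to 0.14. It was lost without IACS replicate 1 (St6galnac4 0.15, adjusted p = 0.14), IACS replicate 2 (0.19, 0.094), untreated replicate 1 (0.18, 0.12) or untreated replicate 2 (0.19, 0.11), and with IACS replicates 1 and 2 averaged (0.17, 0.11). With the replicate number as a block it was at an adjusted p of 0.051. In OHT-primed cells the difference was 0.05 ± 0.06 (adjusted p = 0.57).

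Fig4 differed between IACS and untreated libraries by 0.32 ± 0.12 on the log2 scale (adjusted p = 0.074), and the libraries did not overlap, as in 37.5% of all tested genes. Its adjusted p was 0.03 after quantile normalization and 0.036 with the library total as a covariate. Between OHT_IACS and OHT libraries the Fig4 difference was -0.08 ± 0.12 (adjusted p = 0.65). Gpx6 was not measurable without OHT, since the IACS and untreated groups held 0 reads and 1 read. In OHT-primed cells, the OHT_IACS libraries of Gpx6 all lay above the OHT libraries, where the groups of 35.1% of all tested genes did not overlap. The difference was 0.37 ± 0.21 on the log2 scale (adjusted p = 0.2). The ratio of Gpx6 reads per library total was 1.29 there, with an exact 95% interval of 1.08 to 1.53 for counting error only. That Gpx6 difference passed the threshold with a pseudocount of 1 (adjusted p = 0.0051), with only the compared groups in the fit (0.01) and with limma voom on the reads (0.031), and its adjusted p ran up to 0.72.

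**Figure D3:**
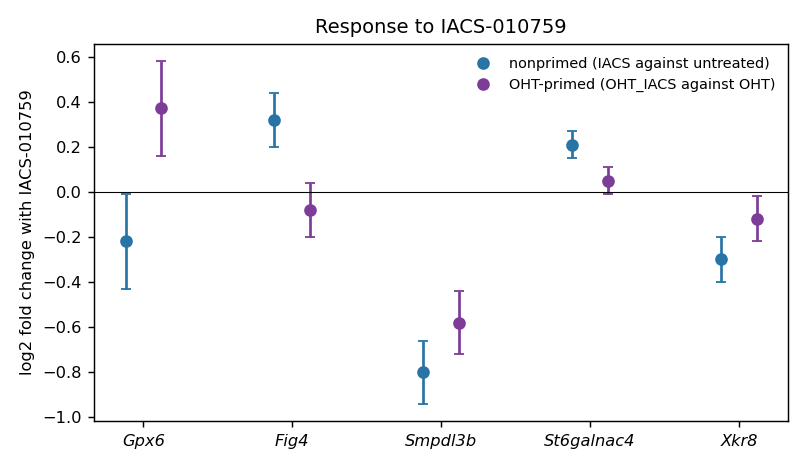
Log2 fold change with IACS-010759 (vertical axis) for the 4 genes and Xkr8, in nonprimed cells (blue) and OHT-primed cells (purple), with bars for the SE of the fit. Both Smpdl3b points, at -0.80 and -0.58, lie below 0 by several SE, whereas the Fig4 and St6galnac4 points in OHT-primed cells, at -0.08 and 0.05, lie within 1 SE of 0.

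Neighbouring genes were examined for a rise that might accompany that of a member. The 3 nearest genes of the table on each side made 24 neighbours, of which 14 passed the filter and 6 had no more than 3 reads in any library. Nearer annotated genes that were not matched to the table were passed over, up to 6 of them upstream of Fig4, and were not examined. With OHT, 1 of the 14 was called higher and 6 were called lower, where 18.2% of all genes were called in each direction. In OHT_IACS against IACS, 1 was higher and 5 were lower, where 12.3% and 14.2% of all genes were called higher and lower. The gene that rose was in both cases Xkr8, which encodes a phospholipid scramblase of the plasma membrane that acts in apoptosis.

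Xkr8 lies on the same strand as Smpdl3b, and its annotated start is 419 bases past the end of Smpdl3b (chr4:132724897-132732546). Its RPKM were 1.53, 1.56 and 1.34 in the untreated libraries, 4.75, 5.24 and 4.93 in the OHT libraries, 1.14, 1.15 and 1.31 in the IACS libraries, and 4.40, 4.88 and 4.42 in the OHT_IACS libraries. The libraries with and without OHT did not overlap. Xkr8 rose with OHT by 1.67 ± 0.10 on the log2 scale (adjusted p = 7.6e-08) and by 1.85 ± 0.10 under IACS-010759 (adjusted p = 3e-08), and in both cases under all 23 alternative settings in which it was tested.

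The Xkr8 level did not keep a fixed ratio to that of Smpdl3b. Per library, the ratio of their RPKM was 0.994 to 1.32 in untreated, 0.522 to 0.646 in OHT, 1.45 to 1.91 in IACS and 0.681 to 0.956 in OHT_IACS libraries. The gain in mean RPKM with OHT was 7.52 for Smpdl3b and 3.50 for Xkr8, or 46.5% of it, and under IACS-010759 it was 5.2 and 3.34, or 64.1%. The response of Xkr8 to IACS-010759 was -0.30 ± 0.10 in nonprimed cells (adjusted p = 0.052, from 0.027 to 0.16 over the alternatives) and -0.12 ± 0.10 in OHT-primed cells (adjusted p = 0.4). Read-through from Smpdl3b into Xkr8 would need reads between the genes to be seen, and was not tested. On the other side of Xkr8, Eya3 (a transcriptional coactivator and phosphatase, opposite strand) differed by 0.03 ± 0.06 with OHT (adjusted p = 0.75) and by -0.02 ± 0.06 under IACS-010759 (adjusted p = 0.8). Upstream of Smpdl3b, Rpa2 (a subunit of replication protein A) differed by 0.01 ± 0.05 with OHT (adjusted p = 0.88).

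**Figure D4:**
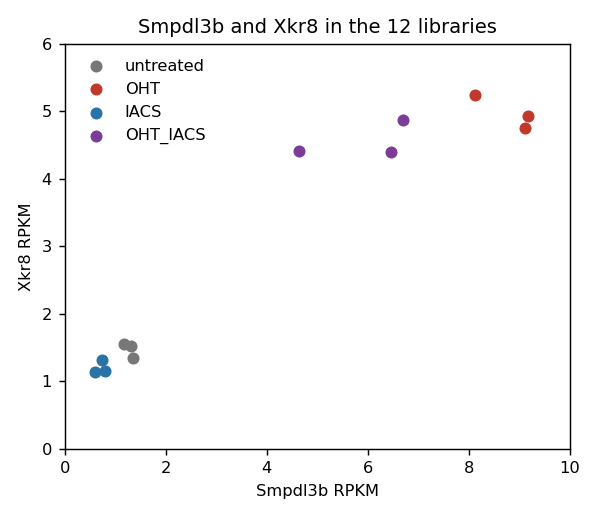
RPKM of Smpdl3b (horizontal axis) and Xkr8 (vertical axis) in the 12 libraries, coloured by condition. The libraries without OHT sit at 0.596 to 1.35 for Smpdl3b and 1.14 to 1.56 for Xkr8, and the OHT_IACS libraries lie to the left of the OHT libraries at Xkr8 levels of 4.40 to 4.88 against 4.75 to 5.24.

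St6galnac6, which encodes a related sialyltransferase that acts on gangliosides, starts 10 bases past the end of St6galnac4 on the same strand, yet moved the other way. Its RPKM were 8.22, 7.97 and 8.07 in the untreated libraries, 7.27, 7.33 and 7.32 in the OHT libraries, 7.23, 7.15 and 6.22 in the IACS libraries, and 5.91, 5.88 and 5.38 in the OHT_IACS libraries. The difference was -0.17 ± 0.06 with OHT (adjusted p = 0.037, lost without OHT replicate 2 or 3 or any 1 of the untreated libraries, at 0.068 to 0.11, and with RPKM as deposited, quantile normalization or the library total as a covariate, at 0.11, 0.085 and 0.19) and -0.25 ± 0.06 in OHT_IACS against IACS (adjusted p = 0.0057). St6galnac6 also fell with IACS-010759, at -0.26 ± 0.06 for nonprimed cells (adjusted p = 0.0078) and -0.35 ± 0.06 for OHT-primed cells (adjusted p = 0.00098). Ak1 (adenylate kinase) and Fam102a, further out on the 2 sides of St6galnac4, fell with OHT, at -0.42 ± 0.09 (adjusted p = 0.0023) and -0.51 ± 0.10 (adjusted p = 0.0015). Dpm2 (a subunit of dolichol-phosphate mannose synthase) differed by 0.14 ± 0.06 (adjusted p = 0.085). The nearest upstream gene, Pip5kl1, had at most 5 reads in a library and Eng at most 10. St6galnac4 and Fig4 each overlap 1 small RNA gene on the opposite strand in GENCODE, and the strand setting of the read counting is not given in the sources used here.

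Around Gpx6, Gpx5 (its closest relative in position, opposite strand, 19393 bases away) had at most 1 read in any library, and Olfr1368 and Olfr1367 (olfactory receptors) had none. Trim27, which encodes a ubiquitin ligase, differed by 0.01 ± 0.06 with OHT (adjusted p = 0.91) at 34.7 RPKM in untreated cells. Zscan12 differed by 0.11 ± 0.07 (adjusted p = 0.2), and Zkscan3, a zinc finger gene, fell by 0.22 ± 0.07 (adjusted p = 0.031) with OHT but was at -0.07 ± 0.07 under IACS-010759 (adjusted p = 0.54). The Zkscan3 call was lost without OHT replicate 1 or 3 or untreated replicate 2 or 3 (adjusted p from 0.063 to 0.13) and under other scalings. Zscan12, Zkscan3 and Trim27 lie 43195, 67378 and 117400 bases from Gpx6, and none of them was called higher with OHT. An effect closer to Gpx6 was not tested.

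Fig4 starts head to head with Ak9 (an adenylate kinase), with 190 bases between the RefSeq starts and 719 between the GENCODE starts. Ak9 was not analysed here. The tested genes around Fig4 lie 147122 to 304860 bases away, so an effect closer to Fig4 was not tested. Of the genes further out, Mical1 (an actin-oxidizing enzyme) fell with OHT, at -0.47 ± 0.07 (adjusted p = 0.00016) and Zbtb24 by -0.32 ± 0.07 (adjusted p = 0.0038). Under IACS-010759 the OHT responses were -0.42 ± 0.07 for Mical1 (adjusted p = 0.0006) and -0.39 ± 0.07 for Zbtb24 (adjusted p = 0.0015). Mical1 rose with IACS-010759 itself, by 0.42 ± 0.07 in nonprimed (adjusted p = 0.0014) and 0.47 ± 0.07 in OHT-primed cells (adjusted p = 0.00046). Cdc40, a splicing factor downstream of Fig4, differed by -0.05 ± 0.09 with OHT (adjusted p = 0.7), Gpr6 and Wasf1 had no reads, and Smpd2 had at most 17.

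**Figure D5:**
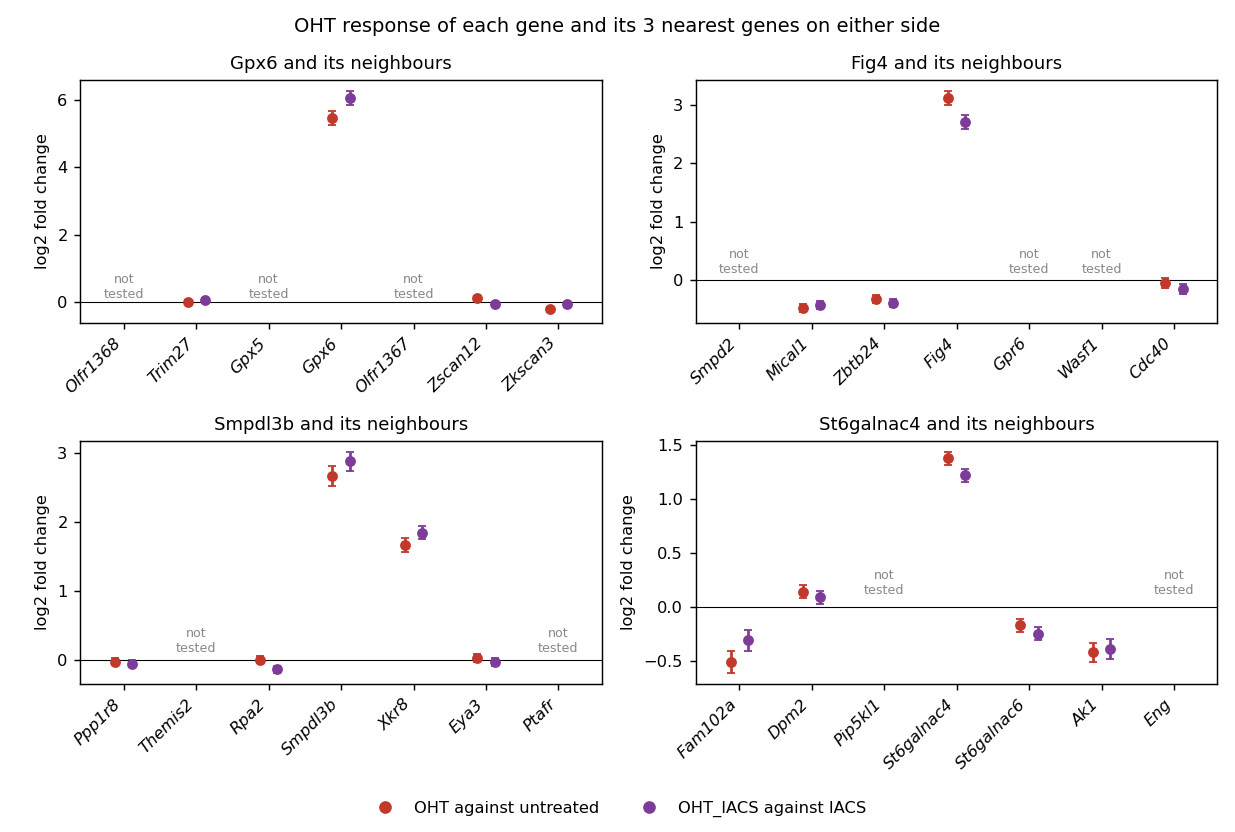
Log2 fold change with OHT without IACS-010759 (red) and with it (purple) for each of the 4 genes and the 3 nearest genes of the table on either side, upstream to the left, with bars for the SE of the fit. Genes that did not pass the filter on low values are marked as not tested. Apart from the 4 genes, Xkr8 at 1.67 and 1.85 is the one point far above 0.

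To set the pair of Smpdl3b and Xkr8 beside others, pairs of tested genes were collected in which the downstream gene starts on the same strand at most 1000 bases past the end of the upstream one, a comparison chosen after the data were seen. Of 247 such pairs, 3 had an upstream gene that was called higher with OHT by at least 1 on the log2 scale, namely Smpdl3b with Xkr8, St6galnac4 with St6galnac6, and Mc1r with Tubb3. The downstream gene was called higher in 2 of these 3, Xkr8 and Tubb3 (a neuronal beta-tubulin), the latter by 1.79 beside 2.39 for Mc1r (the melanocortin receptor). In all 247 pairs, the downstream gene was called higher in 8.91%, and in 10.9% for OHT_IACS against IACS. The pair of Smpdl3b and Xkr8 prompted this comparison and is counted in it. Smpdl3b and St6galnac4 were chosen for their rise with OHT, so their place among the upstream genes called higher follows from that choice and is no test result. These counts are therefore a description, and a link between close genes was not tested.

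By the Pearson correlation of log2 values over the 12 libraries, the gene most like Fig4 was St6galnac4 (r = 0.995), followed by C1ra (a complement protease, 0.994) and Asph (an aspartate hydroxylase, 0.991). St6galnac4 was most like Fig4, then Asph (0.991) and Sord (sorbitol dehydrogenase, 0.99). Gpx6 was most like Psg16 (0.993), C1ra (0.991) and Nr1d2 (a circadian nuclear receptor, 0.99). Smpdl3b stood somewhat apart, at r from 0.926 to 0.96 with the other members, and was most like Zc3h12d (a zinc finger gene, 0.99), Pdk1 (a kinase that restrains pyruvate dehydrogenase, 0.989) and Mxi1 (a MAX partner, 0.988). The 12 libraries fall into those with and without OHT, which sets most of each r, and the values are a description. The genes most like Smpdl3b had values below 0 for IACS-010759, which a choice by correlation over all 12 libraries favours. For Zc3h12d they were -0.62 in nonprimed and -0.37 in OHT-primed cells (limma, adjusted p = 0.1 and 0.29). For Pdk1 they were -0.11 and -0.20 (adjusted p = 0.15 and 0.013), and for Mxi1 -0.20 and -0.26 (adjusted p = 0.041 and 0.0085). The genes most like Gpx6 and Fig4 rose with OHT to different extents, with C1ra at 2.34, Nr1d2 at 1.76 and Asph at 0.87.

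Relatives of the members by function moved in both directions or were not called. Of the 7 other glutathione peroxidases, 2 were tested, Gpx1 and Gpx4 (the peroxidase that protects membrane lipids), and neither was called in any of the 4 comparisons (adjusted p from 0.23 to 0.98), although Gpx1 was called lower with OHT after quantile normalization (-0.11, adjusted p = 0.0034) and with the library total as a covariate (-0.13, adjusted p = 0.0082). Under these settings Gpx1 was also called higher in OHT_IACS against OHT (adjusted p = 0.0088 and 0.0082), and with the covariate lower in OHT_IACS against IACS (-0.08, adjusted p = 0.032). Their RPKM were 69.2 and 37.7 in untreated and 72.1 and 40.0 in OHT cells, so that Gpx6 at 5.08 RPKM remained a minor one by level. Gpx2, Gpx3, Gpx5, Gpx7 and Gpx8 reached at most 0.354 RPKM. Of 19 tested genes of phosphoinositide phosphatases and PI(3,5)P2 turnover, 2 were called higher and 2 lower with OHT, where 18.2% of all genes were called in each direction. In OHT_IACS against IACS, 3 were called higher and 2 lower, beside 12.3% and 14.2% of all genes. These 5 calls became 0 without IACS replicate 1 or with IACS replicates 1 and 2 averaged, 2 without IACS replicate 2, 1 without OHT_IACS replicate 1, and 3 without OHT_IACS replicate 2 or 3. Among them, the Fig4 partner Vac14 differed by 0.26 ± 0.08 (adjusted p = 0.025) and Mtmr1 (a myotubularin) by -0.24 ± 0.07 (adjusted p = 0.016), at adjusted p of 0.085 and 0.074 without IACS replicate 1. Synj2 (synaptojanin 2, an inositol phosphatase) passed the filter only through the OHT_IACS libraries, and with no filter its difference was 0.53 (adjusted p = 0.051).

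Of 20 tested sphingomyelin and ceramide enzymes, 5 were called higher and 3 lower with OHT, where 18.2% of all genes were called in each direction. In OHT_IACS against IACS, 4 were called higher and 4 lower, where 12.3% of all genes were called higher and 14.2% lower. The latter 8 became 5 without IACS replicate 1 or OHT_IACS replicate 1, and with IACS replicates 1 and 2 averaged. Asah2, which encodes neutral ceramidase, was at 0.566 RPKM in IACS and 1.48 in OHT_IACS libraries, but passed the filter only through libraries with OHT, and with no filter its difference was 1.30 (adjusted p = 0.0006). Cerk, which encodes ceramide kinase, fell in this comparison by 0.68 ± 0.06 (adjusted p = 4.8e-06). Of 18 tested genes of sialyltransferases and sialic acid metabolism, 4 were called higher and 6 lower with OHT, beside 18.2% of all genes in each direction. In OHT_IACS against IACS, 2 were called higher and 4 lower, beside 12.3% and 14.2% of all genes. The 10 calls with OHT became 6 without untreated replicate 2 or 3. The 6 calls in OHT_IACS against IACS became 4 with IACS replicates 1 and 2 averaged. Gne, the enzyme that starts sialic acid synthesis, rose in OHT_IACS against IACS by 0.63 ± 0.06 (adjusted p = 1.4e-05). St3gal2 and St3gal1, which encode sialyltransferases that add sialic acid to the O-glycan core on which St6galnac4 acts, fell, at -0.55 ± 0.06 (adjusted p = 2.9e-05) and at -0.66 ± 0.09 (adjusted p = 0.0002). The medians of these 4 lists with OHT lay between 0.01 and 0.06, beside 0.01 over all genes tested. Of 15 genes known to be activated by MYC, 8 were called higher with OHT, with a median of 0.23, and 5 in OHT_IACS against IACS, with a median of 0.13. The 8 were beside 18.2% of all genes called higher, and became 14 without OHT replicate 2. The 5 were beside 12.3%, and became 2 without IACS replicate 1 or 2 or with both averaged, and 3 without OHT_IACS replicate 1 or 2.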

How the data were processed

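Total RNA depleted of ribosomal RNA was sequenced from FLMycER cells in 4 conditions, grouped by sample titles. Per the labels the authors used TopHat2 2.0.8, SAMtools, featureCounts 1.4.5-p1, DESeq2 and mm9. The authors deposited the RPKM of 21671 genes for 12 libraries, and beside them log2 fold changes from DESeq2 with their adjusted p-values, which were not used here. All columns of library values were used (0 left over).

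The steps between RPKM values gave reads, gene lengths and library totals (within 0.0001 of a whole read for 15451 of 15451 genes above 0). Reads on genes ran from 4199266 to 5762340 per library, and intervals and floors (3 reads over a group) cover counting error only. Scaling used the median over genes of the ratio to the geometric mean. The 9745 genes that reached an RPKM of 1 in 3 or more libraries were tested, on log2(RPKM + 0.1), which understates the change of low genes. limma 3.58.1 (R 4.3.3) fitted all 12 libraries together with a mean-variance trend. Two-sided p-values were adjusted by Benjamini-Hochberg within a comparison, with a threshold of 0.05. Shared replicate numbers did not pair the libraries (correlations of deviations from -0.172 to 0.104, over 0.1 in 1 of 18 pairs). The procedure was tested on simulated data.

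The genes, lists, markers and tests were chosen with earlier results of these data known. Besides the 4 genes and Myc, genes were named by position (the 3 nearest genes of the table on each side, placed with GENCODE vM21). Others were named by correlation (the 3 highest over 12 libraries) and by rank (at most 6 above St6galnac4 and 3 below it). Further genes came from lists (the 2 smallest adjusted p, and called genes with a change of at least 0.5). Mc1r, Tubb3 and the pairs of close genes were chosen after their values were seen. Alternatives were pseudocounts of 0.01 and 1, no filter, an RPKM of at least 5, unscaled RPKM, quantile normalization, a replicate block, the library total as a covariate, limma voom on the reads, no trend, only the compared groups, and each library left out. Averaging IACS replicates 1 and 2 was added after seeing the data. Python 3.11.15, numpy 2.4.6, pandas 2.3.3, scipy 1.17.1 and matplotlib 3.10.9 were used.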

Additional observations from a re-analysis of the deposited data

How the results depend on the processing

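All 4 genes were called higher in OHT_IACS against IACS under each of 24 alternatives. The number of the 4 genes called in IACS against untreated was 2. It became 1 (St6galnac4 lost) with IACS replicates 1 and 2 averaged, no filter, no mean-variance trend, only the compared groups or the replicate block. It became 3 (with Fig4) with the library total as a covariate or after quantile normalization, and ran from 1 to 2 with a library left out. In OHT_IACS against OHT it was 1 and became 2 (with Gpx6) with limma voom, only the compared groups or a pseudocount of 1. Neighbours called with OHT numbered 7, and became 3 with an RPKM of at least 5 (fewer genes tested) and 4 with the library total as a covariate. In OHT_IACS against IACS they numbered 6, and became 2 with an RPKM of at least 5 and 5 with IACS replicates 1 and 2 averaged. The log2 fold change of Gpx1 with OHT was 0.04, and turned to -0.13 with the library total as a covariate and -0.11 after quantile normalization. Where no alternative's construction shows it, the cause was not tested. Over all genes, 3546 were called with OHT, and 2351 with the library total as a covariate. In IACS against untreated, 1548 were called, and 949 to 1030 without IACS replicate 3 or any 1 of the untreated libraries. In OHT_IACS against OHT, 2310 were called, and 1521 without OHT_IACS replicate 3. The replicate block changed St6galnac4 (adjusted p = 0.051 in IACS against untreated) and no other call of a member or of Xkr8, and moved the phosphoinositide list from 5 calls to 3 in OHT_IACS against IACS and from 2 to 1 in IACS against untreated. Of 3508 values of single genes compared, 3392 were counted as unchanged, and the counts of called genes are not among these values. For tested values this means the same side of the threshold, and a change of sign between uncalled values was not counted. Untested values were counted as unchanged when they kept their direction and lay close to the main value.

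Calls in the lists moved by over 1.5 times as follows. The glutathione peroxidases went from 0 to 1 with the library total as a covariate in each comparison but IACS against untreated, and after quantile normalization in OHT against untreated and OHT_IACS against OHT. The phosphoinositide list went from 4 to 2 with that covariate in OHT against untreated. In OHT_IACS against IACS its 5 calls became 0 with IACS replicates 1 and 2 averaged, 3 with no filter or an RPKM of at least 5, and 8 after quantile normalization. In IACS against untreated its 2 became 0 when averaged and 1 with unscaled RPKM, no filter or only the compared groups, and in OHT_IACS against OHT its 4 became 7 with no trend. The 8 sphingomyelin and ceramide enzymes in OHT_IACS against IACS became 5 when averaged, with no filter or with an RPKM of at least 5, and the 3 in IACS against untreated became 5 with limma voom and 6 after quantile normalization. The 6 sialic acid genes in IACS against untreated became 3 with no filter. The 5 MYC-activated genes in OHT_IACS against IACS became 2 when averaged and 9 with the covariate, and the 1 in OHT_IACS against OHT became 3 with the covariate and 0 with no filter, no trend or only the compared groups. With a library left out, the list counts in OHT against untreated ran from 6 to 10 for sialic acid genes and 6 to 14 for MYC-activated genes. In OHT_IACS against IACS they ran from 0 to 6 (phosphoinositide), 5 to 9 (sphingomyelin) and 2 to 7 (MYC-activated). In IACS against untreated they ran from 0 to 2 (phosphoinositide), 2 to 6 (sphingomyelin) and 2 to 7 (sialic acid), and in OHT_IACS against OHT from 4 to 8 (sialic acid) and 0 to 4 (MYC-activated).

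Depth limits Gpx6 most: without OHT it had at most 1 read in a library, so its fitted log2 fold change in OHT_IACS against IACS ran from 2.92 to 9.36 over the alternatives. Numbers of replicates are small, and no paired design is given.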
